A study of Mus musculus with 12 samples.

Results

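The genes described here are the hosts of circular RNA junctions in wild-type (WT) mouse hippocampus, each set against its own gene expression. A host was every gene named for at least 1 listed back-splice junction that also has a row in the gene expression table. There were 2947 such hosts, all of them with an expression row, out of 24318 genes. Of 7025 listed junctions, 6795 name a gene and 230 do not. The comparison was made for the 2934 hosts with a mean of at least 0.5 FPKM (fragments scaled to transcript length and to the library's total), since 13 hosts lay below that level, 1 of them at 0.

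Both tables come from hippocampus of 7-month-old mice of the genotypes WT and 5xFAD. Only the WT libraries were used to choose and describe hosts: 3 whose titles begin with AT, which give junction signal, and 3 whose titles begin with CG, which give FPKM. The labels do not spell out the prefixes, do not name a strain background for WT, and do not say whether the 3 libraries of a group came from separate animals, nor do they give their sex. The 5xFAD line carries transgenes with mutations of early-onset Alzheimer's disease, human APP included, under Thy1 sequence active in neurons, and its libraries enter only where a listing rests on them or as a second set of samples.

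Circular RNA forms when the spliceosome joins the end of a downstream exon back to the start of an upstream exon, a step called back-splicing. The closed ring has no free end, so exonucleases such as RNase R, which digest linear RNA, spare it, and circles can outlast the linear messages of the same gene. Brain, and synaptic genes in particular, are known for many circles, and a gene without an intron cannot be back-spliced. A junction is a single joint, so its signal is not divided by length, whereas FPKM is. FPKM was measured in rRNA-depleted total RNA and can include fragments from circles.

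The AT WT libraries held 438790, 695539 and 695528 recovered junction reads, and 1 read was worth a signal of 0.374, 0.228 and 0.234. A junction is listed only if it reached a signal of about 2 in all 3 libraries of at least 1 genotype. The CG WT libraries gave FPKM above 0 for 17221 to 17557 genes, and their depth in reads is unknown. The tissue label was checked on markers: excitatory neuron markers (Prox1, Neurod6, Wfs1, Slc17a7, Camk2a and Neurod2) summed to 1236 to 1444 FPKM, oligodendrocyte markers to 1363 to 1522, astrocyte markers to 142 to 168, microglial markers to 34.7 to 47.7, and the liver markers Alb and Apoa1 to 0 to 0.433. Choroid plexus markers (Ttr, Folr1 and Kl) summed to 2811 FPKM in CG WT replicate 1 against 40.2 and 62.8 in the other libraries, so that library stands apart for this tissue. It also differs in sex-linked transcripts: Xist, expressed from the inactive X chromosome, was at 0.246, 104 and 99.9 FPKM in CG WT replicates 1 to 3, and the Y-linked gene Ddx3y at 18.7, 0.0204 and 0 FPKM. The CG WT libraries therefore do not all come from animals of 1 sex. The AT libraries have no FPKM here, so their sex was not checked, and the source of their spread was not tested. Without CG WT replicate 1, the calls defined below numbered 380 high and 143 low hosts, against 349 and 124 with it. In bulk tissue, fewer cells of a type and less RNA per cell cannot be told apart.

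Having a listed junction did not follow expression in 1 direction. The share of genes with a listed junction rose from 1.09% at a mean of 0.5 to 1 FPKM to 10.01% at 2 to 5 FPKM, 29.0% at 10 to 20 FPKM and 35.5% at 50 to 100 FPKM. Above that it was lower, at 27.2% of 324 genes at 100 to 200 FPKM, 18.8% of 176 genes at 200 to 500 FPKM and in 5 of 50 genes at 500 FPKM or more. Across all 14411 genes at 0.5 FPKM or more, 20.4% had a listed junction. With genes placed by single libraries, the share stayed between 34.3% and 35.7% at 50 to 100 FPKM and between 7.84% and 9.62% at 500 FPKM or more, so the top bin was the lower one in each CG library.

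**Figure D1:**
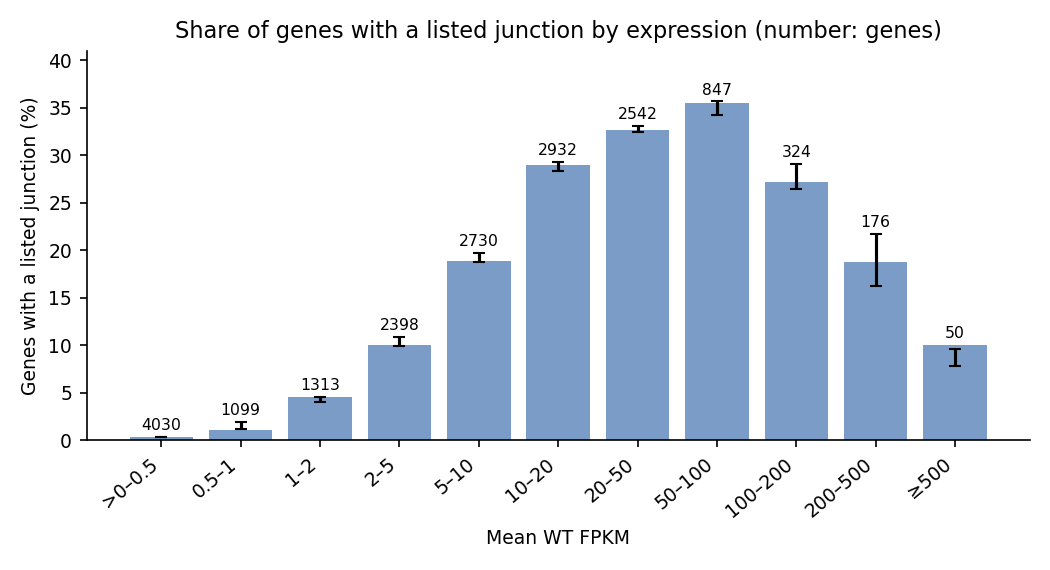
Bars give the share of genes with a listed junction (%, y axis) in bins of mean WT FPKM (x axis), with the number of genes above each bar. Error bars run from the lowest to the highest share when genes are binned by a single CG WT library, so they need not straddle the bar. The share is highest at 50 to 100 FPKM, at 35.5%, and falls to 5 of 50 genes at 500 FPKM or more.

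Among the hosts themselves, junction signal had a low rank correlation with FPKM. Across 2934 hosts the rank correlation (Spearman) of summed junction signal with mean FPKM was 0.184. It was 0.160 to 0.196 over the 9 pairings of 1 AT WT with 1 CG WT library. This correlation is across genes that share the same libraries, so it is a description and hosts are not replicates. Signal itself was ordered alike between the AT WT libraries, with rank correlations of 0.851 to 0.914, and FPKM between the CG WT libraries, with 0.972 to 0.990. Median host signal was 6.96 at 0.5 to 1 FPKM, 10.2 at 2 to 5 FPKM and 16.3 at 10 to 20 FPKM. It was 20.4 at 20 to 50 FPKM, 25.7 at 50 to 100 FPKM, 26.5 at 100 to 200 FPKM, 20.0 at 200 to 500 FPKM and 8.23 in the 5 hosts at 500 FPKM or more, a rise followed by lower values at the top. Signal was also concentrated: the 10 strongest hosts held 9.88% of all host signal and 0.264% of all host FPKM, and the 100 strongest held 37.5% of the signal and 4.13% of the FPKM.

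For each host, the excess was taken as log2 of its summed junction signal less the median of the same value over the 100 hosts nearest in FPKM. These were 50 on either side by FPKM rank. Hosts near either end of the ranking had fewer neighbours, mostly on 1 side. Away from the ends, an excess of 2 is therefore a signal 4-fold above hosts of like expression. It was recomputed for each of the 9 pairings of 1 AT WT with 1 CG WT library, and a host was called high or low only if it reached 4-fold in all 9. By this rule 349 hosts, 11.9% of those compared, were high and 124 hosts, 4.23%, were low. Since the 2 tables were normalized separately, no p-value is given for any level set across them. The excess computed from the means can fall outside the range of the 9 pairings, because each pairing has its own neighbours. Closest to the limit, Pank1 was high with a lowest excess of 2.01, and Sec63 met the limit itself, while Psmd2 was not, with a lowest excess of 1.998. On the low side, Cntn4 was low with a highest excess of -2.02 and Cers1 was not, with -1.99.

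**Figure D2:**
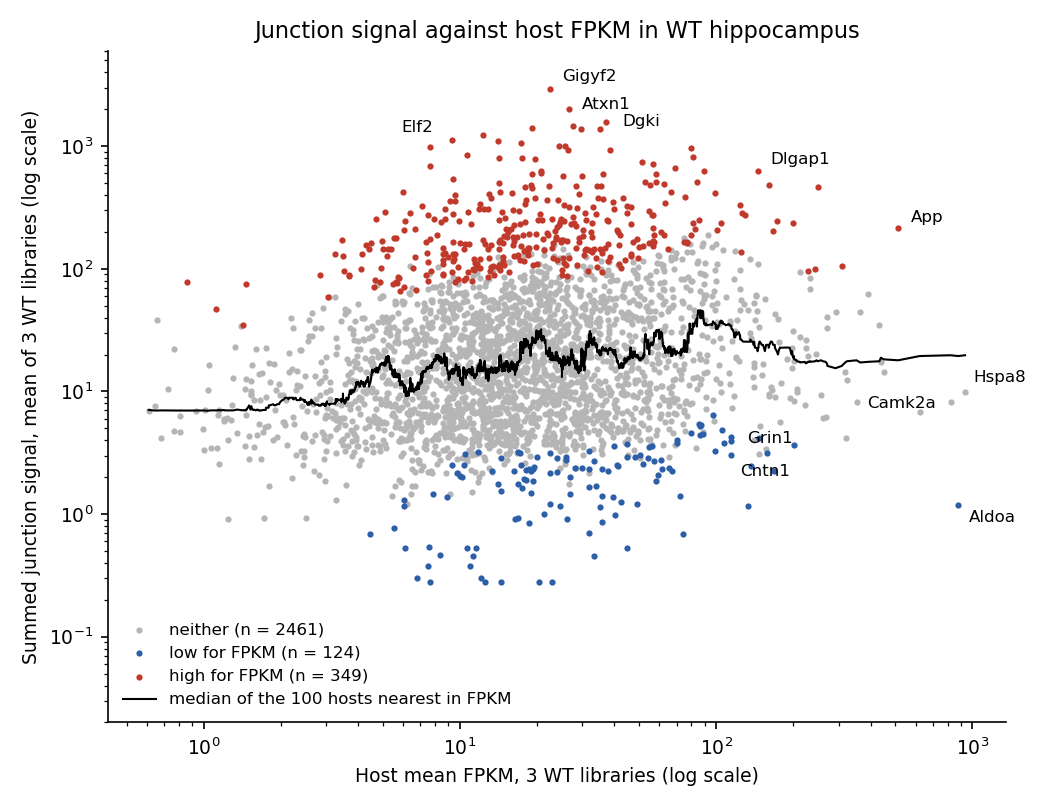
Each point is 1 of 2934 hosts, with mean WT FPKM on the x axis and summed junction signal, the mean of 3 AT WT libraries, on the y axis (both log scales, signal drawn no lower than the group floor of 0.279). Red hosts (349) were high and blue hosts (124) low for their FPKM in all 9 library pairings. The black line is the median of the 100 nearest hosts, fewer at either end. It is lowest below 2 FPKM and highest near 100 FPKM.

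Gigyf2, which encodes a repressor of translation, gave the strongest junction signal of any host at modest expression. Its summed signal was 2511, 3327 and 2928 in AT WT replicates 1 to 3, against 22.1, 22.2 and 23.0 FPKM in the CG WT libraries. That is 136-fold above hosts of like FPKM, an excess of 7.09 (6.89 to 7.62 over the 9 pairings). Nearly all of it, 95.4%, came from 1 of 6 listed junctions, at chr1:89260678-89276583 in mm9 coordinates as the authors' table gives them. All 3 libraries were high, and none overlapped the next strongest host.

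Atxn1, the gene of the polyglutamine protein ataxin 1, came next with a signal of 2198, 1852 and 2035 at 21.1, 31.3 and 27.4 FPKM (excess 6.85, range 6.201 to 6.70). It differed from Gigyf2 in make-up, since its signal was spread over 15 junctions, the strongest of which, chr13:45890877-46051944, held 47.9%. That interval spans 161067 bp. The Atxn1 libraries again lay close together for signal, while FPKM was lowest in CG WT replicate 1.

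The other hosts with the largest excess encode nuclear regulators, scaffold and signalling proteins. Phf21a, a reader of unmethylated histone H3, gave 1229, 1148 and 1320 at 10.7, 12.8 and 13.2 FPKM (excess 6.34), and Elf2, an ETS family transcription factor, gave 991, 1050 and 1307 at 9.03, 9.42 and 9.40 FPKM (excess 6.25). Med13l, a subunit of the Mediator kinase module, gave 1749, 1176 and 1490 at 24.7, 31.3 and 27.2 FPKM (excess 6.21). In Phf21a, Elf2 and Med13l 1 junction held 96.7%, 89.4% and 96.3% of the signal, and the Med13l one, chr5:119043341-119043579, spans only 238 bp.

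Dtnb, the gene of beta-dystrobrevin, gave 1218, 1401 and 1523 at 29.6, 30.1 and 29.0 FPKM (excess 6.48). Dgki, a diacylglycerol kinase, gave 1394, 1621 and 1721 at 35.6, 42.4 and 32.9 FPKM (excess 6.18). It had the most listed junctions of any host, 36, of which the strongest held 44.8%. Libraries of both genes stayed within a narrow band, with SDs of 153 for a mean signal of 1381 in Dtnb and 168 for 1579 in Dgki (n = 3).

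Ssbp2, which encodes a DNA-binding cofactor of LIM-domain factors, gave 1286, 1048 and 942 at 12.5, 15.98 and 13.7 FPKM (excess 6.14). Tmeff1, a membrane protein with follistatin-like modules, gave 1592, 1316 and 1261 at 34.9 to 35.4 FPKM (excess 6.14). Dennd1b, an exchange factor for Rab GTPases, gave 1045, 1065 and 846 at only 6.04 to 9.25 FPKM, over 18 junctions (excess 5.97). The ubiquitin ligase gene Rnf169 (excess 5.92, range 5.23 to 6.36) and the GTPase-activating gene Arhgap26 (excess 5.90, range 4.54 to 5.86) completed the 12 with the largest excess. Tasp1, the gene of the protease taspase, was among the 10 strongest by signal, at 1614, 1193 and 1400 over 23 junctions, with 18.0 to 19.7 FPKM and an excess of 5.66.

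**Figure D3:**
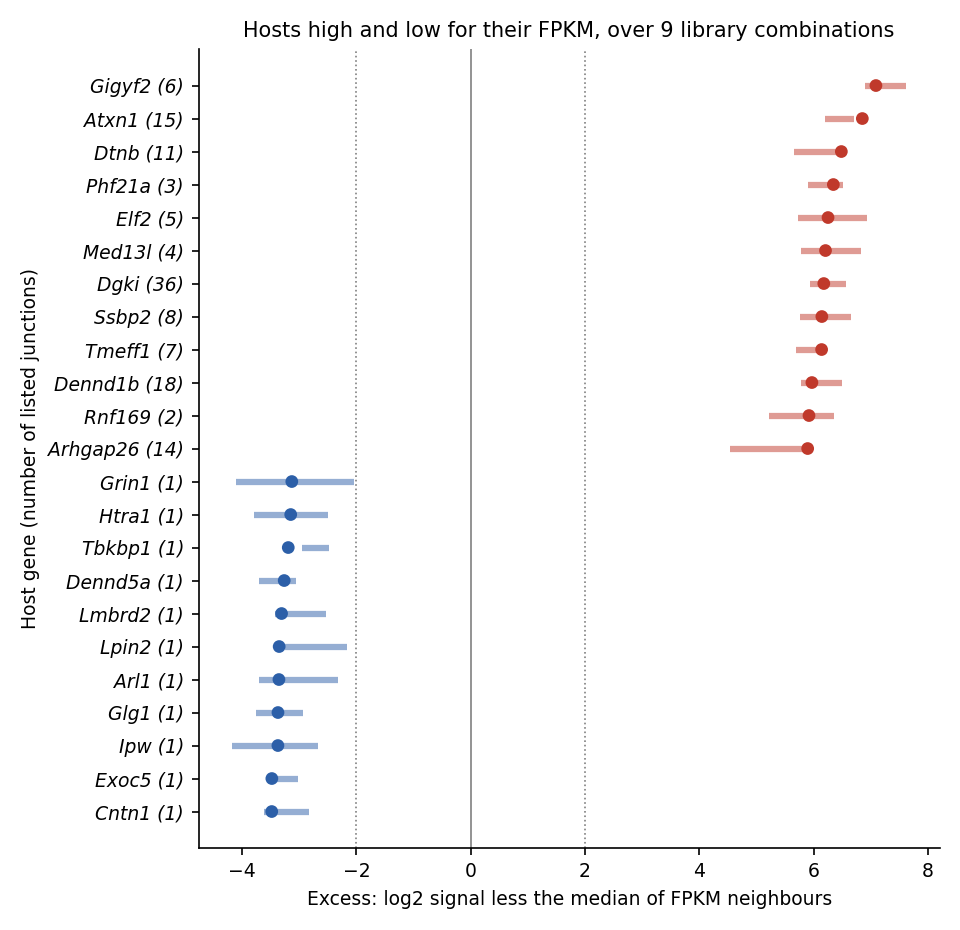
Excess (x axis, log2 junction signal less the median of the 100 hosts nearest in FPKM) of the 12 highest hosts (red) and of 11 among the lowest hosts whose junction reached the listing level in WT (blue), with the number of listed junctions after each name. Points are from the means of 3 libraries, bars span the 9 pairings of single libraries, dotted lines mark 4-fold; the lowest bar end among the red hosts is 4.54 and the highest among the blue ones is -2.04.

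The 349 high hosts held 61.5% of all host signal, and their median FPKM was 18.9, against 16.8 over all hosts compared. Both follow in part from the rule, which picks hosts by signal among hosts of like FPKM. High hosts had a median of 4 listed junctions, whereas 52.6% of all hosts had 1. Only 8.88% of high hosts, 31 genes, had a single junction. Since the signal is a sum over junctions, its rank correlation with junction number, 0.712, is in part built in, while junction number and FPKM had a rank correlation of 0.169. The strongest junction of a high host spanned a median of 10430 bp, against 6132 bp over all hosts and 4485 bp for low hosts. In the 48 high hosts with at least 10 junctions, the strongest one held a median of 39.3% of the signal and spanned a median of 21310 bp.

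A single junction could also reach a high signal. Chosen after the values were seen, the 5 single-junction hosts with the largest excess include Smox, the gene of spermine oxidase, at 419, 376 and 437 for 11.6 to 14.0 FPKM (excess 4.87). Acer3, an alkaline ceramidase gene, gave 308, 297 and 256 for 5.25 to 7.03 FPKM (excess 4.79). Kcnj6, which encodes a G protein-gated potassium channel, gave 197, 370 and 470 for 59.6 to 66.3 FPKM (excess 3.99). AT WT replicate 1 was the lowest of the libraries for Kcnj6 and the highest for Acer3. The 31 such hosts had a median signal of 146 and a median span of 2689 bp.

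Presynaptic active zone genes, which build the site of transmitter release, were mostly hosts: 15 of 18 had a listed junction, against 20.4% of all expressed genes. That share was not matched to the FPKM of this or any later list. At 20 to 50 FPKM, where this list's median of 34.45 lies, it was 32.65%. All lists were drawn up with earlier results of these data known, so none is independent evidence. High for their FPKM were 6 of these 15 and none was low, beside 11.9% and 4.23% of all hosts, and the median excess of the list's hosts was 1.46, against -0.01 over all hosts. The Rab3-binding scaffold gene Rims1 gave 689, 800 and 659 at 54.4 to 59.2 FPKM (excess 4.84). Its relative Rims2 gave 420, 554 and 451 at 20.6 to 23.6 FPKM (excess 4.47), and Rims3, at a mean of 10.9 FPKM, had no listed junction. The calcium channel genes Cacna1a (excess 3.504) and Cacna1b (2.69) and the scaffold gene Erc2 (3.45) were the other high ones, with Unc13b. Vesicle and release genes had fewer: 18 of 30 were hosts. High were 3 of them, beside 11.9% of all hosts: Stxbp5 (tomosyn, excess 4.29), Sv2b (3.53) and Cadps (2.90).

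Among the Munc13 genes, which prime synaptic vesicles, the order of signal was the reverse of a ranking by expression for the first pair. Unc13b gave 150, 162 and 179 at 8.57 to 11.4 FPKM and was high (excess 3.67). Unc13a, at 52.1 to 57.9 FPKM, gave 9.36, 2.96 and 0, an excess of -2.52 that ranged from -5.23 to -1.15 and so missed the rule for low. Unc13c, with 0, 0.456 and 3.74 at 2.98 to 8.28 FPKM, was too thinly counted to be placed. The Unc13b and Unc13a libraries did not overlap in signal or in FPKM.

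Postsynaptic scaffold genes included 15 hosts among 21, with 5 high and 1 low (11.9% and 4.23% of all hosts) and a median excess of 1.00. Anks1b, which encodes a PSD-95-associated protein, gave 1029, 1001 and 869 at 69.9 to 85.8 FPKM (excess 4.98). Dlgap1, a SAPAP scaffold gene, gave 461, 760 and 672 at 132 to 157 FPKM (excess 4.80), while its relatives Dlgap2, Dlgap3 and Dlgap4 had excesses of 1.00, -0.34 and -1.47. Every Dlgap1 library lay above every library of the 3 relatives, whose signals ran from 7.52 to 50.3. Magi2 (excess 4.08), Homer1 (3.05) and Dlg1 (2.94) were high as well. Nrgn (neurogranin, mean 580 FPKM), Dlg4 (PSD-95, 216 FPKM) and Shank1 (127 FPKM) had no listed junction.

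Glutamate receptor subunits differed at like expression. Grin1, the obligatory NMDA receptor subunit, gave 6.36, 3.42 and 2.11 (17, 15 and 9 reads) at 104 to 120 FPKM and was low (excess -3.13). Grin2a, at 119 to 132 FPKM, gave 109, 156 and 148 and was high (excess 2.38), and Grin2b, at 118 to 120 FPKM, gave 76.0, 154 and 188 (excess 2.34, from 1.32, which missed the rule for high). No Grin1 library came near those of Grin2a or Grin2b. Of the AMPA receptor genes, Gria1 and Gria2 had excesses of 0.98 and 1.31 at means of 271 and 272 FPKM, and Gria3 (80.3 FPKM) and Gria4 (29.8 FPKM) had no listed junction.

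GABA-A receptor and inhibitory neuron genes gave 8 hosts among 16, with none high and 2 low, beside 11.9% and 4.23% of all hosts. Gabrb2, a beta subunit, gave 0, 1.37 and 4.21 at 40.3 to 71.4 FPKM (excess -4.08, range -4.82 to -2.31), a value near the counting limit. Gad1 (114 FPKM) and Sst (287 FPKM), markers of inhibitory neurons, had no listed junction.

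**Figure D4:**
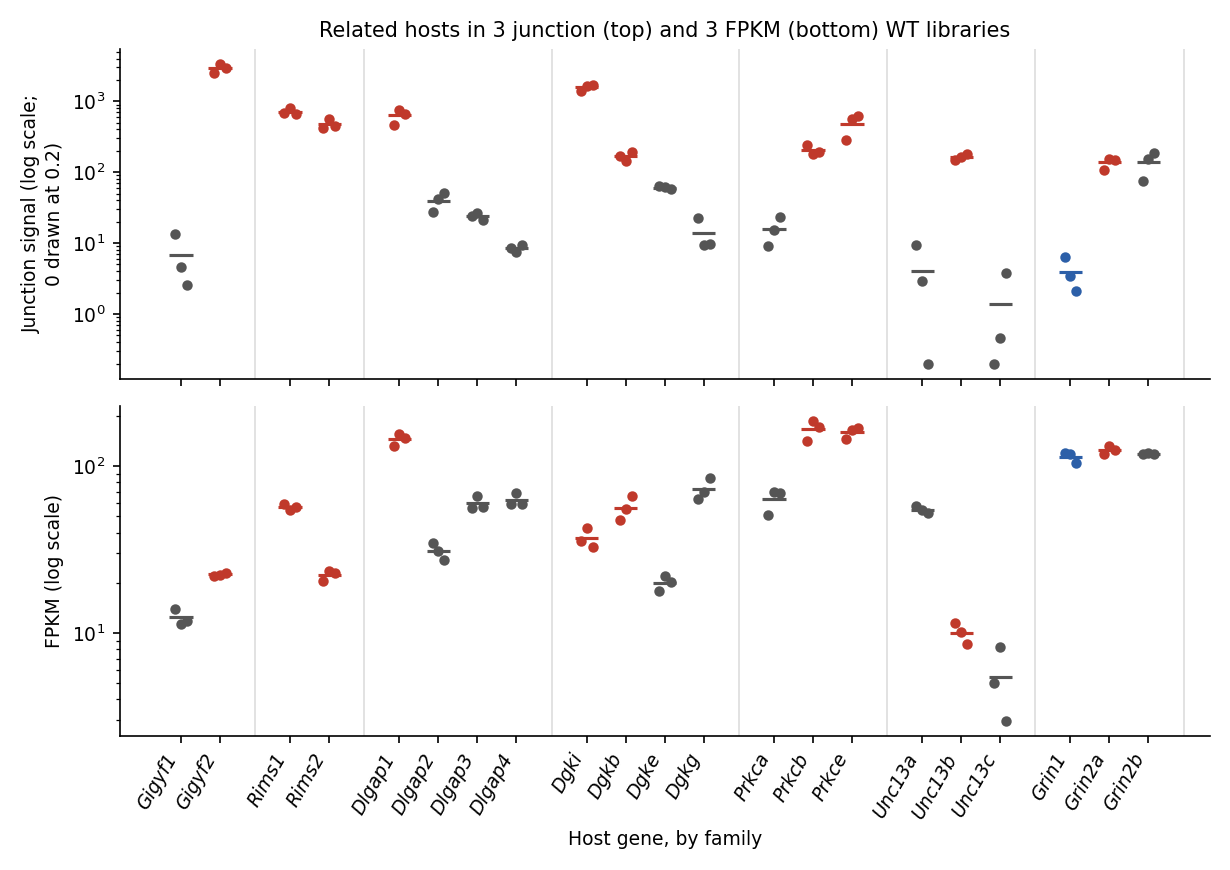
Junction signal in the 3 AT WT libraries (top) and FPKM in the 3 CG WT libraries (bottom), both on log scales, for related hosts set side by side; points are libraries 1 to 3 from left to right, bars are means, red is high, blue is low and grey is neither. Gigyf2 and Gigyf1, Dlgap1 and its relatives, and Grin2a and Grin1 differ far more in signal than in FPKM.

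Synaptic adhesion genes gave 14 hosts among 22, of which 3 were high, beside 11.9% of all hosts. The neurexin genes Nrxn2 and Nrxn3 had excesses of 2.07 and 1.77, below the rule in at least 1 pairing. Adgrl3, a latrophilin gene, gave 252, 194 and 179 at 38.1 to 46.0 FPKM (3.51), and the neuroligin gene Nlgn1 gave 104, 123 and 123 at 34.3 to 40.7 FPKM (2.54). Both were high, whereas Nlgn2 (54.9 FPKM) and Ptprs (132 FPKM) had no listed junction.

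Calcium and sodium channel genes gave 21 hosts among 32, with 8 high, 1 low (11.9% and 4.23% of all hosts) and a median excess of 1.68. Slc8a1, the sodium-calcium exchanger, gave 449, 474 and 542 at 40.3 to 74.8 FPKM (excess 4.49), and Ryr2, an intracellular calcium release channel, gave 584, 563 and 639 at 56.0 to 62.3 FPKM (4.26). Cacna2d3, an auxiliary channel subunit, gave 333, 301 and 327 over 19 junctions (4.01). These 3 genes varied little between the AT WT libraries, and more in FPKM for Slc8a1. Potassium channel genes had fewer hosts than that list, 9 of 22, or 40.9%, against 20.4% of all expressed genes. Their median was 26.4 FPKM, and of all genes at 20 to 50 FPKM 32.65% had a listed junction. Kcnh1 (3.01) and Kcnt2 (2.76) were high, beside 11.9% of all hosts.

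Kinase genes were nearly all hosts, 22 of 26, but the list's median excess of 0.10 was close to that of all hosts. High were 5, beside 11.9% of all hosts. Prkce, a protein kinase C gene, gave 283, 560 and 612 at 146 to 170 FPKM (excess 4.42), and Prkcb gave 244, 179 and 190 at 141 to 186 FPKM (3.09). Prkca, at 51.3 to 69.9 FPKM, gave 8.98, 15.5 and 23.2 (-0.46), below every library of Prkce and Prkcb in both signal and FPKM. Beside Dgki, the kinase gene Dgkb was high (2.79), Dgke (1.03) and Dgkg (-0.67) were neither, and Dgkz (111 FPKM) and Dgkh (36.9 FPKM) had no listed junction. Hipk3, host of a much-studied circle, gave 113, 293 and 352 (excess 3.98, range 2.02 to 4.37), with AT WT replicate 1 well below the others.

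Chromatin and transcription genes gave 34 hosts among 40, with 9 high and none low (11.9% and 4.23% of all hosts) and a median excess of 1.39. Besides Phf21a and Elf2, the nuclear protein genes Zfp609 (excess 4.33) and Ankrd12 (4.18), the acetyltransferase gene Kat6b (4.23) and the methyltransferase gene Kmt2a (3.65) were high. Zfp609 gave 386, 546 and 453 at 17.5 to 18.4 FPKM. Chd3, a remodelling enzyme gene at 122 FPKM, was the most expressed of the list without a junction.

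Genes of RNA-binding proteins tied to circle formation or turnover gave 18 hosts among 32, with 3 high, beside 11.9% of all hosts. Elavl3, a neuronal RNA-binding gene, gave 459, 329 and 352 at 37.1 to 46.4 FPKM (excess 4.60), Elavl2 had an excess of 2.67 that fell under the rule in some pairings, and Elavl4 had no listed junction. Nova2 (3.27) and Celf2 (2.54), splicing regulators, were the other high ones, while Celf4 (130 FPKM) and Hnrnpl (88.8 FPKM) were without a junction. The list of Gigyf2 and its partners in repression had 11 hosts among 16, a median excess of -0.40 and 2 high members, Gigyf2 and the deadenylase gene Cnot6l (3.36). Gigyf1, the paralog of Gigyf2, gave 13.5, 4.56 and 2.57 at 11.4 to 14.0 FPKM (excess -1.23), far below Gigyf2 in each library. The cap-binding partner Eif4e2 (15.7 FPKM) had no listed junction.

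Of other groups, ubiquitin ligase genes gave 17 hosts among 23 with 3 high, Ubr3 (4.01) and Herc2 (3.10) among them. Genes with a BEACH domain, a module of vesicle traffic proteins, gave 5 among 7 with 2 high, Nbea (3.92, over 22 junctions) and Lrba (3.65). Over all hosts, 11.9% were high. In the amyloid and tau list, 7 of 17 were hosts. App, the amyloid precursor gene, gave 162, 238 and 248 at 560, 480 and 500 FPKM and was the most highly expressed of all high hosts (excess 3.59, range 3.20 to 3.69). Few hosts exceed App in FPKM, so it was set against fewer than 100 hosts, most of them less expressed. Its relatives differed: Aplp2 gave 4.12, 2.05 and 5.85 at 134 to 144 FPKM (-2.67) and Aplp1, at 367 FPKM, had no listed junction. Mapt (tau) gave 11.2, 14.6 and 9.12 at 93.0 to 115 FPKM (-1.68). Of 43 expressed genes drawn up as known hosts of brain circles, 41 were hosts and 22 were high, with a median excess of 2.83. That list was chosen for its circles and is not independent evidence. It leaves out Cdr1, which had 369, 992 and 649 FPKM and no junction listed under its name.

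**Figure D5:**
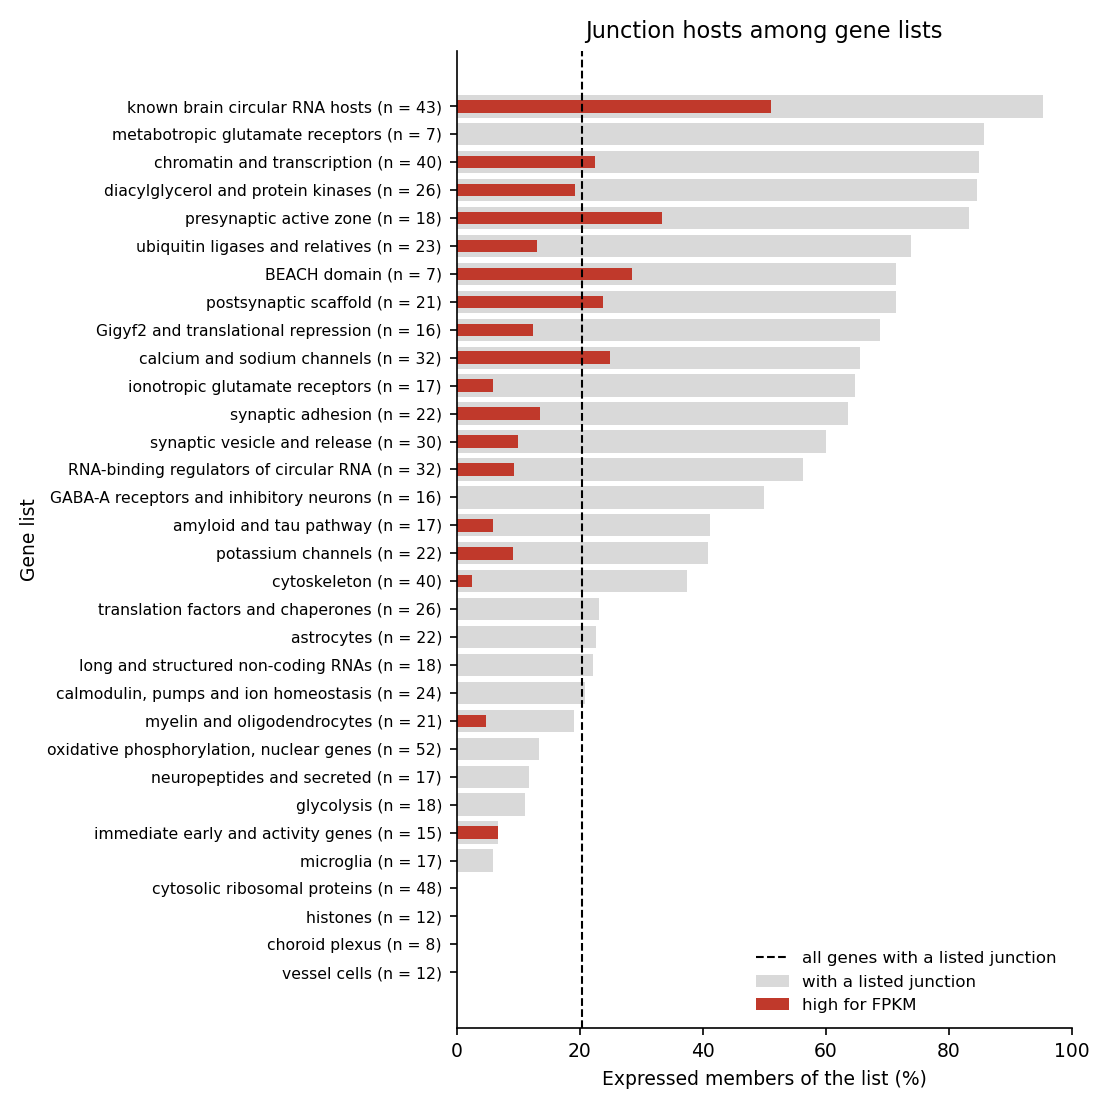
For each of 32 gene lists, grey bars give the share of expressed members (%, x axis) with a listed junction and red bars the share high for FPKM; n is the number of expressed members and the dashed line is the 20.4% of all expressed genes. Synaptic, chromatin and kinase lists lie above the line, and ribosomal protein, histone, choroid plexus and vessel lists are at 0.

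The 124 low hosts all had 1 junction, and most of them owed their listing to the 5xFAD libraries. Both are in part built in, since each listed junction adds signal and a junction listed through WT cannot fall far below the listing level. For 79 the junction did not reach the listing level in all 3 WT libraries, and for 45 it did. No high host depended on 5xFAD in this way, although 369 of the 2934 hosts did. That contrast is largely set by the listing, since such junctions were under about 2 in at least 1 WT library. The number of low hosts also rested on each AT WT library: it was 196, 199 and 189 without AT WT replicates 1, 2 and 3, since fewer pairings must then agree. With the means alone, 361 hosts were low. Low signals rest on few reads, so single low hosts are less certain than high ones.

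The 12 smallest excesses all belonged to hosts listed through 5xFAD, which the listing level favours. Dbnl (drebrin-like), Uap1 and Tfcp2 had no read in any WT library, which allows a mean signal of up to 0.279. Dbnl had 21.2 to 25.7 FPKM, and with each library set to its own floor of 3 reads its excess ran from -5.37 to -3.89, while its signal was 2.60, 2.26 and 2.63 in the 5xFAD libraries. Fig4, Ube2h, Tgfbrap1, St7l, Stard10, Tbc1d13, Dctn4 and Arhgap35 had signals of 0 to 1.64 in single WT libraries. None of these 12 exceeded a mean of 44.8 FPKM.

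The 45 hosts that were low although listed through WT were more highly expressed, with a median of 48.4 FPKM against 16.8 for all hosts and a median signal of 3.17. A junction listed through WT cannot fall far below the listing level, and at a few FPKM the neighbours' median is itself too near it, so such a call is possible only at higher FPKM. Cntn1, which encodes the adhesion protein contactin, gave 3.74, 2.51 and 2.81 (10, 11 and 12 reads) at 106, 121 and 117 FPKM (excess -3.48, range -3.62 to -2.83). Ipw, an imprinted non-coding transcript, gave 2.99, 2.28 and 2.11 at 170, 129 and 112 FPKM (-3.37). Glg1, a Golgi glycoprotein gene, gave 2.62, 2.74 and 2.81 at 56.6 to 57.5 FPKM (-3.37). Each of these sat just above the listing level in every library.

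The exocyst gene Exoc5 (-3.48), the Arf-like GTPase gene Arl1 (-3.35), the lipin gene Lpin2 (-3.35), Lmbrd2 (-3.31), Dennd5a (-3.26), Tbkbp1 (-3.19) and the serine protease gene Htra1 (-3.15) were among the 12 lowest of this kind, with Grin1. Atp2b1, a plasma membrane calcium pump, gave 4.12, 3.19 and 3.74 at 182, 205 and 216 FPKM (-2.40) and had the highest FPKM of the 45.

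Only 5 hosts had a mean of 500 FPKM or more. Their neighbours numbered fewer than 100 and nearly all had lower FPKM, so these hosts lack a comparison at like expression. App was the single high one. Camk2a, the kinase subunit abundant at excitatory synapses, gave 8.61, 11.2 and 4.91 at 726, 889 and 848 FPKM, and Hspa8, a constitutive chaperone, gave 18.0, 3.19 and 8.42 at 895 to 956 FPKM. Slc1a2, the astrocytic glutamate transporter, gave 13.9, 2.96 and 3.51 at 513, 752 and 601 FPKM. Aldoa, a glycolytic aldolase listed through 5xFAD, gave 0.748, 0.684 and 2.11 (2, 3 and 9 reads) at 803 to 960 FPKM and was low (excess -4.04). Every App library lay far above every library of the other genes.

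At 50 FPKM or more in each CG WT library there were 1205 genes, and 840 of them, 69.7%, had no listed junction. The share was larger at higher limits: 76.7% at 100 FPKM, 83.6% at 200 FPKM and 89.2%, or 33 of 37 genes, at 500 FPKM. A missing junction means only that none reached the listing level under that gene's name, since junctions below it are outside these data. Matching by older gene symbols and joint gene names added none, and the 230 junctions with no gene named were not matched to genes.

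Highest among them, leaving aside small structured RNAs such as Rpph1 and Rmrp and the ribosomal RNA precursor Rn45s (2974, 3230 and 2608 FPKM), was the nuclear non-coding RNA Malat1, at 3608, 3288 and 3425 FPKM. Fth1, the ferritin heavy chain, followed at 1440, 1336 and 1466 FPKM. The glycolytic enzyme gene Gapdh had 1350, 1180 and 1244 FPKM. The 12 other genes of the leading 15 were Eef1a1, Rpl38, Actb, Ppia, Rps29, Mbp, Tmsb4x, Calm2, Snap25, Rps21, Cpe and Apoe, with means from 831 to 1168 FPKM. They encode parts of the ribosome and its elongation factor, cytoskeleton, a prolyl isomerase, myelin, calmodulin, the SNARE protein of vesicle fusion, a neuropeptide-processing enzyme and an apolipoprotein. Rpl38 varied most among these, at 1419, 720 and 1273 FPKM, and Snap25 least, at 943, 934 and 916 FPKM. Reads of ribosomal protein, actin, tubulin and calmodulin genes may be shared with near-identical copies, so their FPKM is uncertain.

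By function, none of 48 cytosolic ribosomal protein genes had a listed junction, at a median of 211 FPKM, nor did any of 12 histone genes, many of which have no intron. Oxidative phosphorylation genes encoded in the nucleus gave 7 hosts among 52 (13.5%), none high, beside 11.9% of all hosts. Atp5c1 (excess 1.41) was the highest and Cox6c (693 FPKM) the most expressed without a junction. Of 18 glycolysis genes, 2 were hosts (11.1%), Ldha (1.06) and Aldoa. The oxidative phosphorylation and glycolysis medians were 127 and 198 FPKM, and of all genes at 100 to 200 FPKM 27.2% had a listed junction. Calmodulin, pump and ion homeostasis genes gave 5 among 24, or 20.8%, about the share of all expressed genes (20.4%), with Calm2 and Calm3 (610 FPKM) and Atp1b1 (679 FPKM) without a junction. The cytoskeleton list gave 15 hosts among 40, with 1 high, beside 11.9% of all hosts. Its only high member was Ank3, the ankyrin of the axon initial segment, at 237, 136 and 125 for 73.9 to 77.2 FPKM (excess 2.98).

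Of the lists of non-neuronal cells, myelin and oligodendrocyte genes gave 4 hosts among 21 and astrocyte genes 5 among 22, shares near the 20.4% of all expressed genes. Their medians were 23.97 and 56.55 FPKM, and of all genes at 20 to 50 and 50 to 100 FPKM 32.65% and 35.5% had a listed junction. Microglial genes gave 1 host among 17, and vessel and choroid plexus genes none among 12 and 8. Glul, glutamine synthetase of astrocytes, had 640 FPKM with no listed junction. The one high member was Tmeff2 (88.4 ± 12.4 signal, SD, n = 3, at a mean of 25.1 FPKM, excess 2.43), and the microglial host was Mertk (-0.33). The medians of the microglial and vessel lists were 12.3 and 5.07 FPKM, against 9.23 for all expressed genes. Over all genes at 10 to 20 and at 5 to 10 FPKM, 29.0% and 18.9% had a listed junction. Ttr, at 2758, 32.9 and 55.6 FPKM, followed the choroid plexus markers of CG WT replicate 1 and is outside the 840.

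Immediate early genes, which neurons switch on with activity, had 1 host among 15, Homer1; Egr1 (53.8 FPKM) and Arc (46.3 FPKM) had none. Among long and structured non-coding RNAs, 4 of 18 were hosts, or 22.2%, near the 20.4% of all expressed genes. Their median was 57.1 FPKM, and of all genes at 50 to 100 FPKM 35.5% had a listed junction. Rmst gave 19.8, 61.5 and 31.3 at only 2.81 to 4.22 FPKM (excess 2.20, from 0.92), and Rian gave 36.7, 31.2 and 32.5 at 129 to 165 FPKM (0.56). Meg3, from the same imprinted cluster as Rian, had 453 FPKM and no listed junction.

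The same hosts were then ranked in the 5xFAD libraries, which took no part in the WT calls beyond the listing of junctions. The rank correlation of the excess in WT and in 5xFAD was 0.937 across 2934 hosts. In those libraries 311 hosts were high and 279 were high in both, 79.9% of the WT set and 89.7% of the 5xFAD set. For low hosts the overlap was smaller, 40 genes, or 32.3% of the 124 in WT and 35.1% of the 114 in 5xFAD. This overlap is in part set by the listing: 79 of the 124 were listed only because their junction reached the listing level in 5xFAD. The overlap of the 45 listed through WT is not given here. Without the library labelled CG 5xFAD replicate 3 the shared numbers were 287 and 41. High calls were thus shared for most hosts and low calls for fewer of them.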

How the data were processed

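Junction signal per mm9 interval and library was taken as deposited by the authors, and whole reads were recovered from it (100% of values whole within 0.01). FPKM per gene was taken as deposited by the authors. Per the submitters' processing notes the build was mm9 and DESeq was used; the aligner, junction caller, FPKM quantifier and use of strand count as not given in the sources used here. Therefore reads of overlapping or antisense genes cannot be told apart. Per the labels' protocols, Ribo-Zero removed rRNA before NEBNext Ultra library construction.

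Junction signals were summed per host and averaged over 3 AT WT libraries, with values under 3 reads in all set to that floor (a mean signal of 0.279). In the pairings, the floor was 3 reads of the single library, a signal of 1.12, 0.684 and 0.702 in AT WT replicates 1 to 3. The excess over the 100 hosts nearest in FPKM was computed with pandas 2.3.3 and numpy 2.4.6 in Python 3.11.15. The code was also run on simulated hosts without read counts, a working floor or a listing level. That run therefore cannot speak for the low calls, which rest on all of these. No test was run across the tables. All sample columns were mapped to samples. Genes named are the 12 largest and 12 smallest excesses, the 10 largest signals, the 15 most expressed genes without a junction that are neither mitochondrial nor small structured RNA (the ribosomal RNA precursor was also left aside), and for each list its extremes and paralogs; other names, among them the 12 lowest hosts listed through WT and the genes nearest the limits, were chosen after their values were seen. Members, lists and rules were chosen with earlier results of these data known. Gene lists came from textbook knowledge of hippocampus and circular RNA. The floor stands in for values under 3 reads and does not cover the counting error of hosts above it. Some genes that these rules take are not reported here.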

Additional observations from a re-analysis of the deposited data

Results flagged for a closer look

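Junctions with no gene named lie outside the comparison with FPKM, yet the 230 such junctions carried 2.23% of the WT junction signal, with 2.24%, 2.12% and 2.33% in AT WT replicates 1 to 3. The strongest gave 428, 314 and 385, which is above the signal of most named hosts. The next, on chromosome 5, gave 210, 168 and 184, and the third, on chromosome 3, gave 63.2, 75.4 and 240, with AT WT replicate 3 far above the others. Their host genes were not looked up here.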

How the results depend on the processing

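The number of high hosts ran from 282 to 391 over the settings that kept the 4-fold limit in single libraries, was 497 from the means alone, and was 631 at 2-fold and 155 at 8-fold. The number of low hosts moved more: it was 314 by a plain ratio to FPKM, 55 with the strongest junction only, 422 at 2-fold, 23 at 8-fold, 361 from the means alone and 22 with junctions at a mean signal of at least 4. Leaving out 1 library at a time gave 134 to 199 low and 366 to 390 high hosts. With junctions listed through WT only, an alternative chosen after seeing the data, 289 hosts were high and 85 low. The rank correlation of signal with FPKM was 0.184 and became 0.169 with the strongest junction only, 0.164 at a mean of at least 2 FPKM and 0.158 with junctions listed through WT only. Highly expressed genes without a junction numbered 2342 at 20 FPKM and 369 at 100 FPKM in each library, against 840 at 50 FPKM. Named hosts gave 558 values under these settings, of which 133 moved by more than 1 SD and none changed sign. Taking same-numbered AT and CG libraries as a replicate block gave 389 high and 159 low hosts. Deviations of same-numbered libraries had correlations of 0.014, 0.064 and 0.041, against -0.064 to 0.011 for differently numbered ones. All of these are small, and whether the numbers pair the libraries was not tested. Libraries differed more in signal than in FPKM: over the compared hosts, the median ratio of the highest to the lowest library was 1.82 and 1.20. For signal, 187 hosts had a library at 0 and are outside that ratio. The source of this spread was not tested.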
